A study of Mus musculus with 15 samples.

Results

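The genes described here are the Nkx, Pax, Lhx, Irx, Dlx, Msx and Six-family genes, developmental transcription factors read out through the H3K4me3 peaks at their promoters. They were taken by symbol, as protein-coding genes whose name starts with one of these 7 stems followed directly by a digit, which gave 52 of the 21770 protein-coding genes of the GRCm39 annotation. There were 14 Nkx, 9 Pax, 8 Lhx, 6 Irx, 6 Dlx, 3 Msx and 6 Six-family genes. A promoter peak was a peak that overlapped the 2000 bp on either side of any transcript start of the gene.

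The study compared mouse brown adipocytes (mBA cells) that lack CLPP, a protease of the mitochondrial matrix, with WT cells left untreated or given 2HG, an oncometabolite that inhibits 2-oxoglutarate-dependent dioxygenases such as the histone demethylases of the Jumonji class. H3K4me3 ChIP–seq was done on 12 samples, 4 per condition (CLPP-KO, WT and WT + 2HG), and 3 inputs were sequenced. The WT cells were wild type for Clpp and untreated by their labels. The WT + 2HG cells were the same genotype treated with 500 µM octyl d-2HG, a form that enters cells, in DMSO for 72 h. The CLPP-KO cells were knockout cells and, unlike the WT cells, were supplemented with uridine to offset a growth defect. By the methods the cells of both genotypes were preadipocytes from the brown fat of mice, immortalized with SV40 large T antigen and differentiated in culture, whereas the labels call them primary cells. All 3 groups therefore carry the viral antigen, and the CLPP-KO cells differ from WT in cell line and uridine as well as in genotype, which cannot be told apart here.

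Peak calling by the authors joined the 4 replicates of each condition, so there is 1 list per condition, and a value given "with 2HG" below is from the WT + 2HG list. No spread between replicates can be given and no difference between lists was tested. The lists give no number of reads per peak or per library. The WT list held 12342 peaks, the WT + 2HG list 14059 and the CLPP-KO list 15118, so a longer list marks more genes of any kind, and shares of the 52 genes are therefore set beside the same shares over all protein-coding genes, of which 51.3% were marked in WT, 56.4% with 2HG and 58.2% in CLPP-KO. The Clpp promoter was marked in all lists, at area percentiles of 39.9 in WT, 45.2 with 2HG and 43.4 in CLPP-KO, which does not check the knockout, since a promoter can stay marked when the protein is lost. Of 8 general adipocyte markers, 2 had a promoter peak in WT, 5 with 2HG and 4 in CLPP-KO. Of 8 brown adipocyte markers, 2, 3 and 4 did, respectively, and Ucp1, Ppargc1a, Dio2, Elovl3, Adipoq, Fabp4 and Cd36 had none in any list. Muscle markers were marked in 1, 2 and 4 of 6, neuronal markers in 3, 2 and 4 of 6, epithelial markers in 1, 2 and 3 of 6, osteochondral markers in 4 of 6 in each list and haematopoietic markers in 0 of 6. The part of other cell types in the results below was not tested.

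These genes encode DNA-binding regulators that set regional and organ identity in the embryo. Most carry a homeodomain. The Pax proteins are defined by the paired domain, the Lhx proteins add LIM domains that bind cofactors, and the Irx proteins belong to the TALE class. In cells of other lineages their CpG-rich promoters are typically held silent by Polycomb complexes, often with H3K4me3 and H3K27me3 side by side, a state called bivalent. H3K4me3 alone therefore does not say that a gene is transcribed.

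The 300 bases around the canonical start of 6 of the genes are printed below, from 250 bases upstream to 50 bases downstream, 5′ to 3′ along the gene's strand, from the GRCm39 genome with GENCODE M39 starts. CpG dinucleotides are in capitals. The first group is the 4 genes without a WT peak that had the largest CLPP-KO peak area among those gained in both other lists: Irx2 (chr13:72776656-72776955, plus strand), Lhx8 (chr3:154035647-154035946, minus strand), Pax3 (chr1:78173722-78174021, minus strand) and Msx3 (chr7:139628953-139629252, minus strand).
Irx2: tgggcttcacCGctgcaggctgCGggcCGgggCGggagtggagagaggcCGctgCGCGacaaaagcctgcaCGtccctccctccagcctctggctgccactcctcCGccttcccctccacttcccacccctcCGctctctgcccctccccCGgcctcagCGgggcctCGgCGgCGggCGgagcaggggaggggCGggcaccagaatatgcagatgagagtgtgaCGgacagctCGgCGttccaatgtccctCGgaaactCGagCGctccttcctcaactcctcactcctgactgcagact
Lhx8: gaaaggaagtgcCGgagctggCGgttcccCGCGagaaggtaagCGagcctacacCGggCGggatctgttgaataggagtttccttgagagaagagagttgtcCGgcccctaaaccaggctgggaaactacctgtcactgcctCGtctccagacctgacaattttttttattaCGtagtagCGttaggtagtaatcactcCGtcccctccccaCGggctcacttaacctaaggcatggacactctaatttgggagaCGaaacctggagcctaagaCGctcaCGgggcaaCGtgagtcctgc
Pax3: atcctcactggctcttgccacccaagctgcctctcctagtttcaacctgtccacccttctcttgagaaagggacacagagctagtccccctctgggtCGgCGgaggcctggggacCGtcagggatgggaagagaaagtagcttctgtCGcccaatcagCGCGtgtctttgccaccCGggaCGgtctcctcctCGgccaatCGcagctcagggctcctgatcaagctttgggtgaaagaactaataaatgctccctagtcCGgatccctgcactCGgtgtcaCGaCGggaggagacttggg
Msx3: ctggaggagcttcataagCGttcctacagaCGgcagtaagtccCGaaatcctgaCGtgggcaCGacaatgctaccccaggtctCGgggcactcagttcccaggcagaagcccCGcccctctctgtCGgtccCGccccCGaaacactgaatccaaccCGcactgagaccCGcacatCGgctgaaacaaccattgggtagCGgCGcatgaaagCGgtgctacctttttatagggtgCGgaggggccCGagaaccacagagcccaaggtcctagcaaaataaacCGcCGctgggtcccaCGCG
For contrast, the second group is Nkx2-6 (chr14:69409001-69409300, plus strand) and Six6 (chr12:72986416-72986715, plus strand), which had a promoter peak in no list.
Nkx2-6: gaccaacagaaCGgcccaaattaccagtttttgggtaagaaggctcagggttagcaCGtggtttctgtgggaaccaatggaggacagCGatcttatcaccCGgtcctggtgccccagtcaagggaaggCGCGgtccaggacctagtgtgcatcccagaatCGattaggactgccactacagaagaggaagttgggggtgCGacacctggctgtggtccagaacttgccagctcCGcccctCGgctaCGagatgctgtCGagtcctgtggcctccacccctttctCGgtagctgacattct
Six6: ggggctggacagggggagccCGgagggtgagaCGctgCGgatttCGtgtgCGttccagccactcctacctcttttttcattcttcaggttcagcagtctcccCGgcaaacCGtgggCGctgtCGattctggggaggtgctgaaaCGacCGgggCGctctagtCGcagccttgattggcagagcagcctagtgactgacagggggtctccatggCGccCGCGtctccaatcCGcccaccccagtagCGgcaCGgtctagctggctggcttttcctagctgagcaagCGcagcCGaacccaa
The windows of Irx2, Lhx8, Pax3 and Msx3 held 23, 17, 14 and 22 CpGs, and those of Nkx2-6 and Six6 held 13 and 21. The median was 15 CpGs over the 52 genes and 11 over all protein-coding promoters. CLPP-KO peaks covered all 300 bases of the Irx2 and Msx3 windows and 266 of those of Lhx8, and WT + 2HG peaks covered all 300 bases of Msx3 and 24 of Pax3. No WT peak overlapped any of the 6 windows. The letters GGGCGG, searched on both strands, were found in such windows of 34 of the 52 genes (65.4%) and of 42.5% of all protein-coding genes. The letters TATAAA, searched on both strands, were found in 3 of the 52 (Lhx3, Msx2 and Msx3; 5.77%) and in 13.2% of all.

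In the WT list 24 of the 52 genes had a promoter peak (46.2%), against 51.3% of all protein-coding genes. In WT + 2HG it was 39 genes (75%, against 56.4% of all), and in CLPP-KO it was 44 (84.6%, against 58.2%). The families thus stood slightly under the genome-wide share in WT and above it in both other lists. None of the 24 genes marked in WT was missing from another list (0 of 24, against 1.24% of all coding genes with a WT peak).

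Of the 28 genes without a WT promoter peak, 15 had one in WT + 2HG (53.6%, against 11.6% of the coding genes without a WT peak). In CLPP-KO 20 of the 28 had one (71.4%, against 14.9%). All 15 were among the 20, which leaves 5 genes gained in CLPP-KO alone (17.9%, against 5.15%) and 0 gained in WT + 2HG alone (against 1.83%). The shares gained in both lists, 53.6% of the 28 and 9.74% of all, rest on 2 comparisons that use the same WT list and are not independent of each other. Counting a gene gained in either list, the shares were 71.4% and 16.7%. When each list was limited to its 12342 peaks of largest area, the length of the WT list, 17 of the 28 were still gained in either list (60.7%, against 10.2% of all) and 10 in both (35.7%, against 5.42%). In these shorter lists Irx6, Lhx8, Nkx1-1 and Pax5 had no WT + 2HG peak and Nkx6-1 had no CLPP-KO peak. Equal length does not make the lists equal in signal. Over the 11021 coding genes marked in every list, the median −log10 p-value at the peak summit was 11.2 in WT, 17.8 with 2HG and 19.9 in CLPP-KO. The part of this difference in the gains was not tested.

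**Figure D1:**
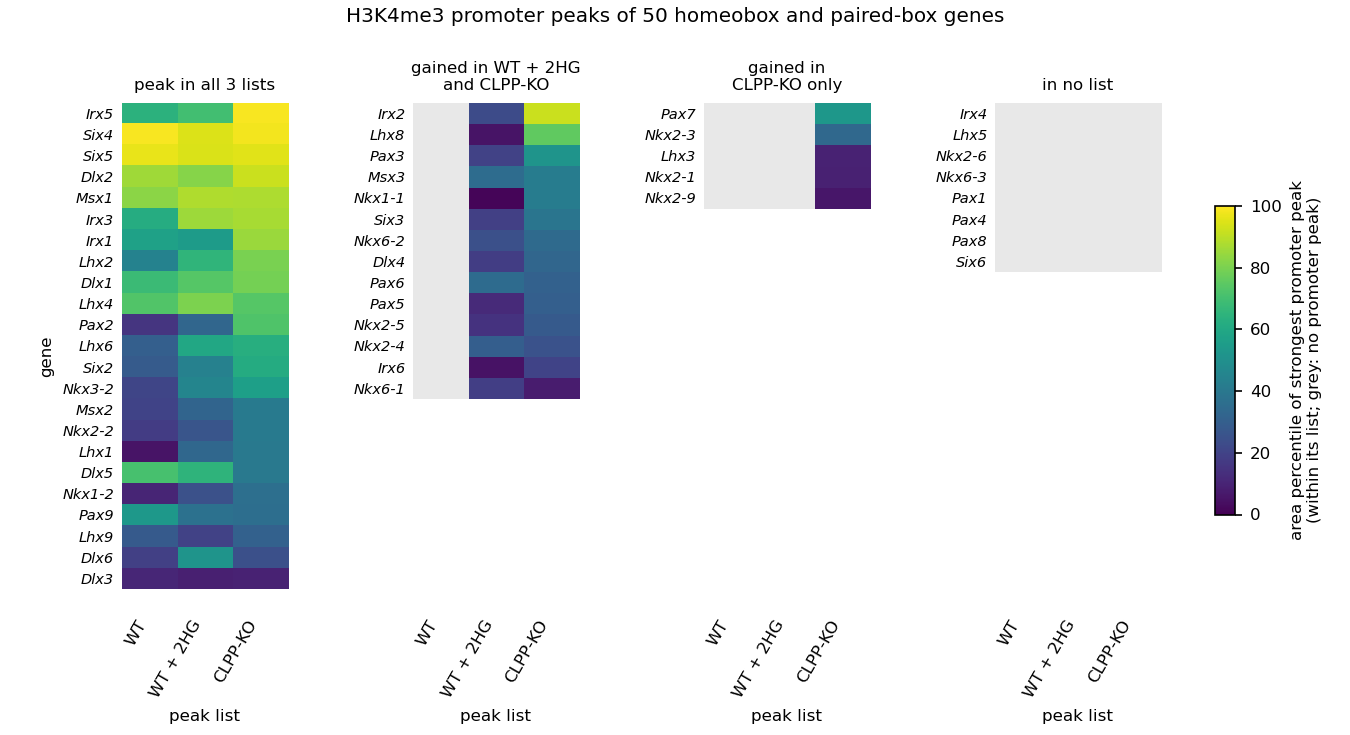
Strength of the strongest promoter peak of 50 of the 52 genes (rows) in the WT, WT + 2HG and CLPP-KO lists (columns), as a percentile of area within the list; grey marks no promoter peak. The 23 genes on the left have a peak in every list, the next 14 and 5 have none in WT, and the 8 on the right have none at all.

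Strength is given as the area percentile, the share of peaks in the same list with an area under the curve no larger than that of the gene's strongest promoter peak. Areas are not scaled between lists, so a percentile places a peak among the peaks of its own list. The genes gained in both lists had a median percentile of 18.7 in WT + 2HG (1.28 to 35.4, n = 15 genes) and 33.2 in CLPP-KO (7.67 to 91.9). All coding genes gained in both had medians of 17.3 and 24.4. The percentile was higher in CLPP-KO than in WT + 2HG for 12 of the 15 genes, against 70.9% of all 1033 such genes. These peaks thus stood in the lower part of either list, with Irx2, Lhx8 and Pax3 as the 3 of 15 above the middle of the CLPP-KO list. In each of the 15 genes a WT + 2HG peak and a CLPP-KO peak overlapped each other. The share over all 1033 such genes was not computed, so this overlap cannot be called particular to the 15.

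Among the Iroquois genes, which pattern the neural plate, heart and limb, Irx2 stood out by size. It had no WT promoter peak, and the nearest WT peak was 665142 bp from a start. In WT + 2HG it had 1 peak of 830 bp at percentile 23.0. In CLPP-KO it had 3 peaks that covered 3372 bp, the strongest at percentile 91.9 (chr13:72776050-72778037, with its summit in an exon). Irx6, which lies on another chromosome near Irx3 and Irx5, had a WT + 2HG peak of 252 bp at percentile 4.87 and a CLPP-KO peak of 1185 bp at 19.9. Irx1, Irx3 and Irx5 were marked in every list and Irx4, a regulator of ventricular identity in the heart, in none.

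Of the LIM-homeodomain genes, Lhx8, known from cholinergic neurons of the basal forebrain and from the developing tooth, had its nearest WT peak 265958 bp from a start. In WT + 2HG it had 1 peak of 439 bp at percentile 5.40. In CLPP-KO 3 peaks covered 2425 bp, the strongest at percentile 75.7 (chr3:154033434-154034637, summit in an intron). The CLPP-KO peaks covered nearly all of the promoter bases printed above, and the WT + 2HG peak covered none of them. Lhx3, a regulator of pituitary and motor neuron development, was gained in CLPP-KO alone, with 2 peaks of 616 bp in total and a percentile of 9.43. Lhx1, Lhx2, Lhx4, Lhx6 and Lhx9 were marked in every list, and Lhx5 in none.

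Of the Pax genes, Pax3 and Pax7 specify neural crest and muscle progenitors. Pax3 had a WT + 2HG peak of 498 bp at percentile 19.7, and in CLPP-KO 2 peaks of 1111 bp in total at 51.6 (strongest chr1:78172857-78173704), beginning just downstream of the start. Pax7 had no promoter peak in WT or WT + 2HG, with the nearest WT + 2HG peak 11653 bp from a start, and 2 peaks of 2066 bp at percentile 53.0 in CLPP-KO (strongest chr4:139559586-139560897). This made Pax7 the strongest of the 5 genes gained in CLPP-KO alone. Pax5, the B cell commitment factor, stood at 12.1 with 2HG and 30.1 in CLPP-KO. Pax6, the eye and pancreas regulator, stood at 34.8 and 30.9. For Pax5 and Pax6 the peaks lay at alternative starts several kilobases inside the genes, and neither gene was marked when 1 canonical start per gene was used. Pax2 and Pax9 were marked in every list, and Pax1, Pax4 and Pax8 in none.

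The Nkx genes had the lowest share marked in WT, 3 of 14, with 9 with 2HG and 12 in CLPP-KO. The Pax genes were close to this, with 2 of 9 marked in WT, 5 with 2HG and 6 in CLPP-KO. Of all coding genes 51.3%, 56.4% and 58.2% were marked, respectively. Nkx2-5, required for heart development, stood at percentile 14.6 in WT + 2HG and at 28.5 in CLPP-KO, where 3 peaks covered 1900 bp. Its WT + 2HG peak lay 1942 bp from the nearest start, close to the edge of the window. The CLPP-KO peak that overlapped this peak was not the strongest of the 3 and stood at 23.4. Nkx2-4, a relative of Nkx2-1 of the ventral forebrain, stood at 30.0 with 2HG and 25.3 in CLPP-KO. Nkx1-1 stood at 1.28 and 41.8, respectively, the widest gap after Lhx8 and Irx2. Nkx6-2, expressed in the oligodendrocyte lineage, stood at 24.2 and 34.7. Nkx6-1, a regulator of beta cells and motor neuron progenitors, stood lower in CLPP-KO, as Nkx2-4 did, at 18.7 with 2HG and 7.67 in CLPP-KO.

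Gained in CLPP-KO alone were Nkx2-1, the thyroid, lung and forebrain regulator, at percentile 9.12, Nkx2-9 at 6.11 and Nkx2-3, needed for the spleen and gut, at 33.9. The first of these rested on a peak of 328 bp and the second on one of 366 bp. Nkx2-1, Nkx2-9 and Lhx3 were in no list at a summit p of at most 1e-05, at an area of at least 1000 or when the lists were cut to equal size. For Nkx2-3 the difference between lists was one of position at the edge of the window: the CLPP-KO peak began 1997 bp from the start, and the nearest WT + 2HG peak lay 2160 bp from it. The 5 genes gained in CLPP-KO alone had a median percentile of 9.43 (6.11 to 53.0), against 12.2 for all 546 such genes. Nkx1-2, Nkx2-2 and Nkx3-2 were marked in every list, and Nkx2-6 and Nkx6-3 in none.

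The other families had most of their members marked in WT. The shares over all coding genes were 51.3% in WT, 56.4% with 2HG and 58.2% in CLPP-KO. Of the Six-family genes, partners of the Eya cofactors in sense organ, kidney and muscle development, 4 of 6 were marked in WT and 5 in each other list. Six3, a forebrain and eye regulator, was gained, at percentile 19.0 with 2HG and 38.7 in CLPP-KO. Of the Dlx genes, which pattern the jaws, limbs and forebrain, 5 of 6 were marked in WT and 6 in each other list, the addition being Dlx4 at 18.02 with 2HG and 33.2 in CLPP-KO. Of the Msx genes, 2 of 3 were marked in WT and 3 in the others. Msx3, which is expressed in the dorsal neural tube of the embryo, had 2 peaks in each of these lists, covering 1119 bp at percentile 35.4 in WT + 2HG and 1409 bp at 41.9 in CLPP-KO. The strongest Msx3 peaks of the 2 lists spanned nearly the same bases (chr7:139628550-139629317 and chr7:139628516-139629271).

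**Figure D2:**
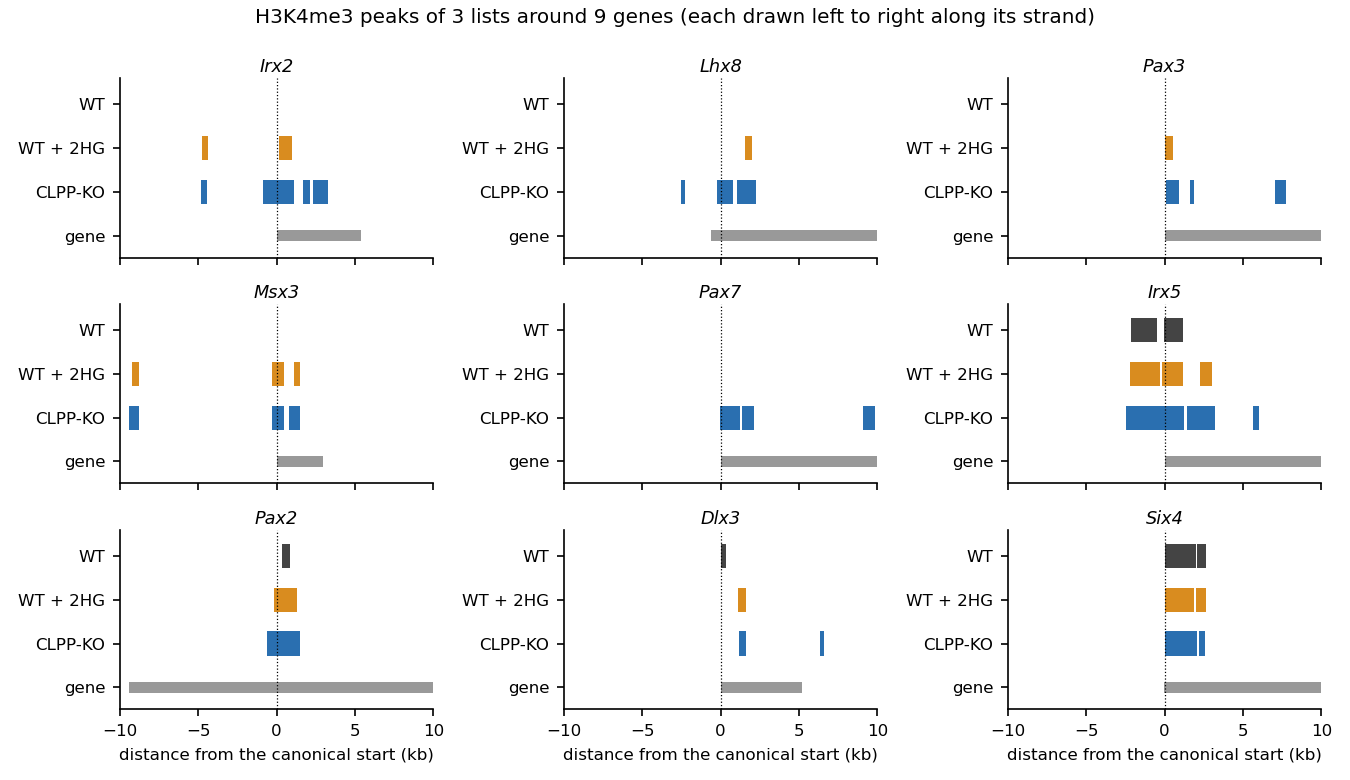
Peaks of the 3 lists within 10 kb of the canonical start of 9 genes; the horizontal axis is the distance in kb along the gene's strand, each bar is 1 peak, and the grey bar is the gene. Irx2, Lhx8, Pax3, Msx3 and Pax7 have no WT bar at the start, the Irx5 and Pax2 bars are longest in CLPP-KO, the Dlx3 bar of WT lies apart from those of the other lists, and the larger Six4 bars have nearly the same length in each list.

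The 24 genes with a peak in all 3 lists ranged from the strongest to the weakest peaks. Their median area percentile was 48.7 in WT, 57.4 with 2HG and 67.6 in CLPP-KO, against 59.8, 64.8 and 67.0 for all 11021 coding genes marked in every list. Six4, Six5, Msx1 and Dlx2 were among the 5 genes with the largest median percentile over the lists. Six4 stood at 99.1, 94.6 and 98.4, and its peak also overlapped the promoter of Mnat1, a subunit of the CDK-activating kinase. Six5 stood at 96.7, 94.5 and 95.5 and shared its peaks with the promoter of Dmpk, the gene of the myotonic dystrophy locus. For Six4 and Six5 the mark thus cannot be assigned to 1 gene. Msx1, a regulator of tooth and palate development, stood at 82.6, 88.0 and 87.8, and Dlx2 at 85.8, 82.0 and 91.8, with no neighbouring coding start under the peak.

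The 5 with the smallest median were Dlx3, Dlx6, Nkx1-2, Nkx2-2 and Lhx9. Dlx3, which acts in skin and placenta, stood at 10.7 in WT, 8.83 with 2HG and 9.61 in CLPP-KO, and its WT peak (chr11:95010957-95011305, in an exon at the start) did not overlap the peaks of the other lists (chr11:95012063-95012526 and chr11:95012126-95012546, in an intron). It was the exception among the 24, since in the other 23 the WT peak overlapped a peak of each other list. How often such peaks overlap over all coding genes was not computed. Dlx6 stood at 18.8, 51.7 and 24.5. Nkx1-2 stood at 10.4, 24.7 and 36.6, and Nkx2-2, which specifies ventral neural and endocrine pancreas cells, at 17.8, 26.3 and 40.7. The CLPP-KO value of Nkx1-2 was from a peak inside the gene, and its CLPP-KO peak at the start stood at 26.9. For Nkx2-2 the WT + 2HG value was from an upstream start, and the WT + 2HG peak at the place of the other lists' strongest peaks stood at 22.7. Lhx9, which acts in the gonad and limb, stood at 28.2, 19.8 and 31.2.

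Because weak peaks added to a longer list raise the percentiles of its other peaks, the always-marked genes were also ranked by area among the 11021 coding genes marked in every list, from 0 (weakest) to 100 (strongest). The median rank of the 24 was 37.4 in WT, 40.3 with 2HG and 50.9 in CLPP-KO, where all genes have a median of 50.0 by construction. The rank was higher than in WT in 14 of 24 genes in WT + 2HG (against 48.5% of all) and in 15 of 24 in CLPP-KO (against 47.7%). With 2HG it was higher by more than 10 points in 6 of 24 (25%, against 20.7% of all) and lower by more than 10 in 3 (12.5%, against 21.2%). In CLPP-KO it was higher by more than 10 points in 9 of 24 (37.5%, against 19.5% of all) and lower by more than 10 in 2 (8.33%, against 21.7%). Low ranks have more room above them, and among genes with WT ranks of 25 or less 8 of 11 of the always-marked ones stood higher in CLPP-KO (72.7%, against 59.1% of all in that range).

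**Figure D3:**
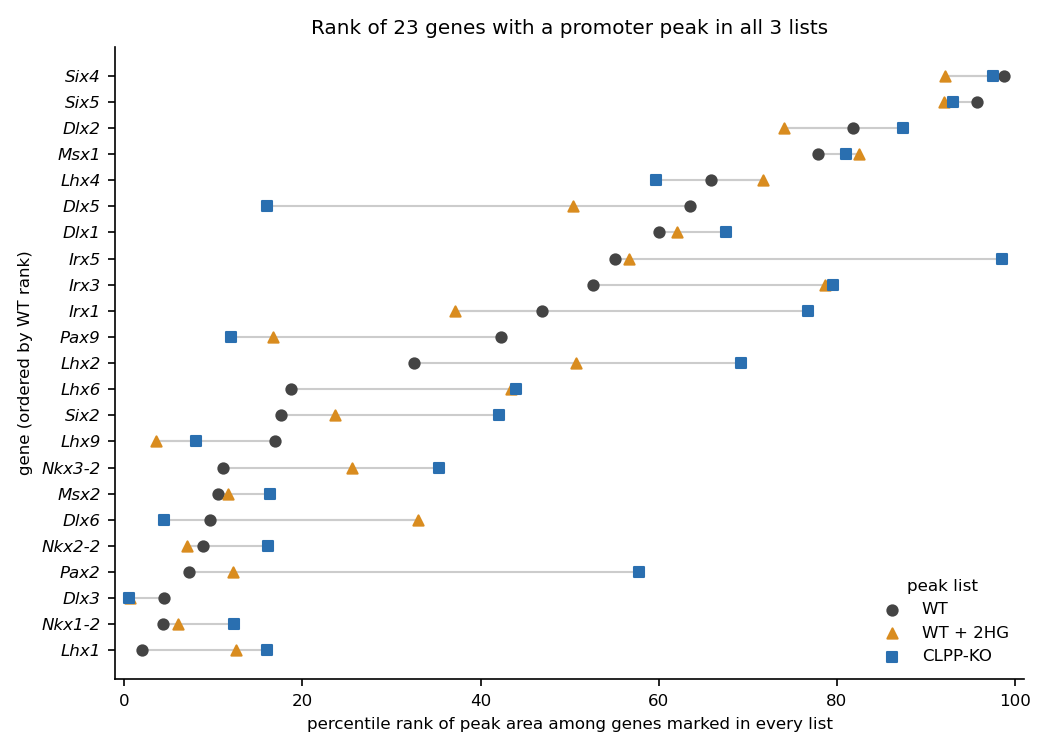
Percentile rank of the strongest promoter peak (horizontal axis, 0 to 100, among the 11021 coding genes marked in every list) for 23 of the 24 always-marked genes, ordered by WT rank; circles are WT, triangles WT + 2HG and squares CLPP-KO. Six4 and Six5 stay above 91 in every list, Irx5, Pax2, Lhx2 and Irx1 have their squares far to the right of their circles, and Dlx5 and Pax9 have theirs far to the left.

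Pax2, the kidney and midbrain regulator, had the widest difference in rank, at 7.30 in WT, 12.2 with 2HG and 57.8 in CLPP-KO, with peaks of 522, 1433 and 2107 bp. All 3 Iroquois genes marked in WT stood higher in CLPP-KO. Irx5 had ranks of 55.1 in WT, 56.7 with 2HG and 98.6 in CLPP-KO, and its promoter peaks covered 2913, 3248 and 5510 bp. In WT and WT + 2HG a gap separated the peak upstream of the Irx5 start from the one over it, and in CLPP-KO 1 peak of 3686 bp spanned both (chr8:93081797-93085482). The ranked Irx5 peak was the one over the start in WT and the upstream one in WT + 2HG. Area percentiles in WT and WT + 2HG were 64.1 and 58.3 over the start, and 37.3 and 69.6 upstream. Irx3 stood at 52.6, 78.7 and 79.6 and Irx1 at 46.9, 37.1 and 76.7. Irx3 and Irx5 are known in fat through the obesity-associated locus of their neighbour Fto. Promoter peaks of Irx5 also overlapped the noncoding gene Crnde, which starts close to it on the other strand, and the method used here does not part the 2.

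A further 4 genes stood over 20 points higher in CLPP-KO than in WT. Lhx2, of hair follicle and forebrain, had ranks of 32.5 in WT, 50.8 with 2HG and 69.3 in CLPP-KO. Lhx6, of cortical interneurons, had 18.8, 43.4 and 44.0. Six2, of kidney progenitors, had 17.6, 23.7 and 42.1. Nkx3-2, which represses chondrocyte maturation, had 11.1, 25.6 and 35.3. In each of these genes the WT + 2HG rank lay between the other 2. For Lhx2 the ranked peak lay at an upstream start in WT and WT + 2HG and at the canonical start in CLPP-KO. Its area percentiles in WT, WT + 2HG and CLPP-KO were 17.3, 58.5 and 80.1 at the canonical start. At the upstream start they were 44.2, 65.4 and 76.0. Dlx5, a regulator of osteoblasts, and Pax9, of the pharyngeal pouches and teeth, went the opposite way, with Dlx5 at 63.5 in WT, 50.4 with 2HG and 16.0 in CLPP-KO and Pax9 at 42.3, 16.7 and 11.9. The genes named by rank here were picked after their values were seen, and with 1 list per condition no rank has an error.

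The promoter peaks of the 24 genes covered more bases than in WT in 20 of 24 genes in WT + 2HG (against 73.3% of all) and in 21 of 24 in CLPP-KO (against 72.7%). The median difference was 379.5 bp with 2HG and 486.5 bp in CLPP-KO, against 110 and 106 bp over all. More separate peaks than in WT were found in 8 of 24 genes in WT + 2HG (against 7.04%) and in 8 of 24 in CLPP-KO (against 7.40%). Over the 52 genes there were 30 promoter peaks in WT, 56 with 2HG and 75 in CLPP-KO, which covered 30791, 54783 and 72766 bp. No peak served 2 of the 52 genes at once. The promoter window of a noncoding gene was also overlapped by 12 of the WT, 27 of the WT + 2HG and 39 of the CLPP-KO peaks. Peaks of Irx2, Dlx4, Lhx8 and Pax5 are examples, and the method used here does not part such genes. Most summits lay in exons, 21 of 30 in WT, 38 of 56 with 2HG and 54 of 75 in CLPP-KO. Shares over all coding genes were not computed for the summits or the noncoding overlaps. Neither can therefore be called particular to these genes.

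Peaks near the genes but outside every coding promoter were also more frequent. At least 1 such peak lay within 10000 bp of the gene in 4 of 52 genes in WT (against 2.67% of all), namely Lhx5, Nkx6-3, Pax5 and Six6. In WT + 2HG it was 19 of 52 (36.5%, against 4.80%) and in CLPP-KO 26 of 52 (50.0%, against 5.74%). These were 5, 21 and 33 distinct peaks, with median area percentiles of 10.7, 15.7 and 24.1.

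Several of the genes sit side by side, and neighbours did not always share a pattern. Dlx1 with Dlx2 and Dlx5 with Dlx6 were marked in every list. Six6, a regulator of eye and pituitary, had no promoter peak in any list, and its nearest peaks lay 5453 bp from a start in WT, 5186 bp with 2HG and 5430 bp in CLPP-KO. Nkx2-6, a regulator of the pharyngeal region, also had none. Its nearest peak was 112081 bp away in WT but 2958 bp away with 2HG and 2817 bp in CLPP-KO, outside the window. Nkx6-3, a stomach gene, had its nearest peaks at 2910, 2978 and 2945 bp in the 3 lists, so a window of 3000 bp would mark it in all of them. Irx4, Pax1, Pax4 and Pax8 had no peak within 21 kb of a start in any list. Pax1 lies in one cluster with the marked Nkx2-2 and the gained Nkx2-4, and Pax9 in one with Nkx2-1 and Nkx2-9, gained in CLPP-KO alone.

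**Figure D4:**
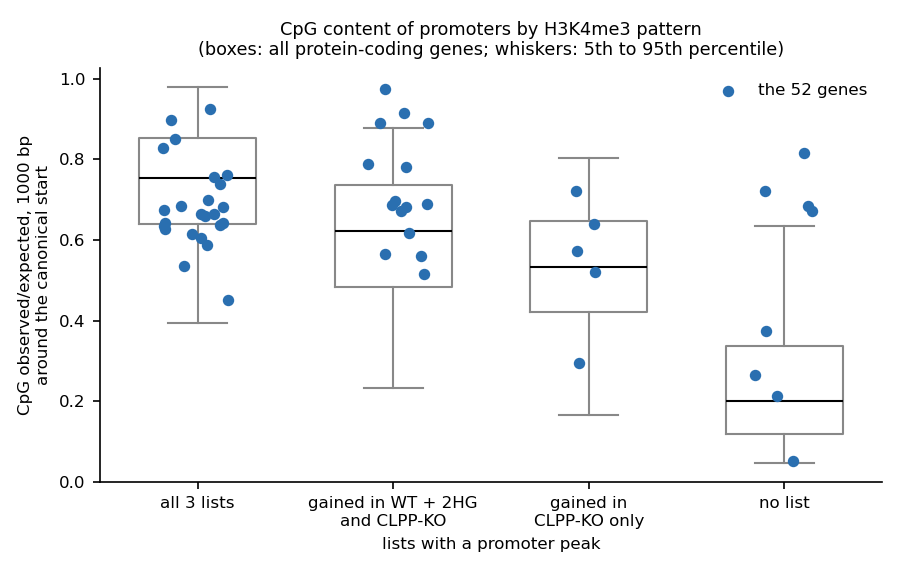
CpG observed/expected ratio over the 1000 bp around the canonical start (vertical axis) by the lists in which the promoter has a peak; dots are the 52 genes, and boxes are all protein-coding genes with the median, the quartiles and whiskers at the 5th and 95th percentiles. The dots of genes in no list fall into 4 at about 0.67 or above and 4 well below that, while the box of all genes in no list has a median of 0.200.

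CpG content of the promoters did not enter the choice of genes. A promoter was called CpG-rich when GC was at least 55% and the observed/expected CpG ratio at least 0.6 over the 1000 bp around the canonical start, which held for 34 of the 52 genes (65.4%, against 39.3% of all). The median CpG ratio was 0.665 for the genes in all 3 lists, 0.689 for those gained in both, 0.573 for those gained in CLPP-KO alone and 0.523 for those in no list. Over all protein-coding genes the medians were 0.754, 0.622, 0.532 and 0.200. Of the 8 genes in no list, Irx4, Lhx5, Pax1 and Six6 had CpG-rich promoters, and Nkx2-6, Nkx6-3, Pax4 and Pax8 did not.

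Among coding genes without a WT peak, the CpG-rich ones were gained more often in general. Of the 17 CpG-rich genes of the 52 without a WT peak, 13 were gained in either list (76.5%, against 66.8% of the 865 such coding genes) and 11 in both (64.7%, against 49.2%). The gap to the background was thus much narrower among CpG-rich genes than over all genes. Of the 11 with poorer promoters, 7 were gained in either list (63.6%, against 12.3% of 9746), but the median CpG ratio of the 11, 0.517, was above that of all such coding genes, 0.215. Pax5 and Pax6 were among these 7, but their peaks lay at alternative starts several kilobases away. Their CpG class, taken at the canonical start, does not describe the promoter that was marked. Nkx2-3, marked only at the edge of the window, and Nkx2-9 and Lhx3, lost under stricter peak cuts, were also among them. Within bands of the ratio, 5 of 5 were gained between 0.4 and 0.6 (against 37.0%), 10 of 13 between 0.6 and 0.8 (against 61.7%) and 4 of 5 between 0.8 and 1.0 (against 54.7%). Pax6, Nkx2-3 and Nkx2-9 were in the band between 0.4 and 0.6 and Pax5 in the next, with the same limits.

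Partner genes of these factors were counted in the same way. Over all coding genes, 51.3% were marked in WT, 56.4% with 2HG, 58.2% in CLPP-KO and 50.6% in all 3 lists. Of the coding genes without a WT peak, 9.74% were gained in both other lists. All 9 TALE cofactors (Pbx, Meis and Pknox genes), 5 of 6 Groucho corepressors and 19 of 20 Polycomb genes, among them Ezh2, Eed and Suz12, were marked in all 3 lists, and Tle6 and Phf19 had none. Of the 6 partners of the Six-family proteins, Eya1, Eya3, Eya4 and Dach1 were marked in every list, Eya2 in WT + 2HG and CLPP-KO, and Dach2 in none. Of the 10 LIM partners and other LIM genes, 5 were marked in WT and 8 in each other list, so that the WT share of the LIM genes was close to that of all genes. The 3 additions, Isl1, Isl2 and Lmx1b, are themselves LIM-homeodomain factors of neurons and limb, whereas the cofactor gene Ldb1 was marked throughout.

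Other developmental families gave counts of the same kind. Of the 39 Hox genes, 21 were marked in WT, 32 with 2HG and 36 in CLPP-KO, and 15 of the 18 without a WT peak were gained in either list. Of the 45 forkhead genes the counts were 28, 34 and 38, with 10 of 17 gained, and of the 40 Sox, Gata and T-box genes 20, 27 and 31, with 11 of 20 gained. Over all coding genes 51.3% were marked in WT, 56.4% with 2HG and 58.2% in CLPP-KO. Of those without a WT peak, 16.7% were gained in either list. With 20 of 28 gained, the 52 genes stood between the Hox genes and the other families, and these differences were not tested.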

How the data were processed

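H3K4me3 ChIP–seq peak lists of 3 conditions were analysed. The authors trimmed reads with fastp (version 0.23.4), mapped them to GRCm39 with BWA–MEM (0.7.17) and called peaks with Genrich (0.6.1), combining the p-values of the 4 replicates of a condition, by the methods and the submitters' processing notes. The deposited lists give for each peak a score, a signal (its area under the curve) and the −log10 p-value of its summit, all as the authors computed them. They were used to rank peaks within a list and, in the alternatives, to filter peaks. The cuts at a fixed p or area were the same for all 3 lists, although areas are not scaled between lists. The median area was 2970 in WT, 5027 with 2HG and 5744 in CLPP-KO. The smallest area was 200.0 in each list. The lists do not match the settings the study states, which give a lower minimum area and leave out the sex chromosomes, on which each list has peaks, and they were used as deposited. The lists hold no read counts. The study states a sequencing depth but not per library, so the precision of a peak is unknown.

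Start sites came from GENCODE M39 (protein-coding genes of GRCm39), and promoter bases from the GRCm39 genome. A peak was assigned to every protein-coding gene whose window of 2000 bp either side of a start it overlapped by at least 1 bp. Where a gene had several promoter peaks, the one of largest area was ranked. Gained genes were those marked in WT + 2HG or CLPP-KO but not in WT. Counts and medians were set beside those over all protein-coding genes, without tests. The genes, the partner and marker lists and the alternatives were chosen with earlier results of these data known. Values are given for every gene gained, for the 5 strongest and 5 weakest of those in all lists, and for others as stated. Assignment was tested on simulated data. Inputs were not used. Values of some of the genes are not reported here, although the counts include them. The software was pandas 2.3.3, numpy 2.4.6 and scipy 1.17.1 under Python 3.11.15, with matplotlib 3.10.9 for plots.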

Additional observations from a re-analysis of the deposited data

How the results depend on the processing

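No paired analysis was possible because each condition has a single list called on its 4 replicates together, and for the same reason no replicate could be left out. Of 89 comparisons with an alternative setting, 78 counts stayed within 1.5 times, or medians and shares within the 95% binomial interval, of the values reported. The others were as follows. A window of 1000 bp left 1 gene marked in WT missing from another list (Dlx3), as did lists of equal size. Genes gained in WT + 2HG alone numbered 1 in place of 0 when peaks counted only for the nearest gene (Six4), at a summit p of at most 1e-05, at an area of at least 1000 and in lists of equal size (Nkx6-1 in each). Genes in no list numbered 13 in place of 8 at a summit p of at most 1e-05, and genes gained in CLPP-KO alone 8 in place of 5 at an area of at least 1000. Ranked by width, the median percentile of the strongest peaks was 58.2 in place of 33.4 in WT + 2HG and 64.7 in place of 40.8 in CLPP-KO. The share of genes without a WT peak gained in either list was 100% in place of 71.4% at CpG ratios between 0.4 and 0.6, an alternative chosen after seeing the data. The cause of these differences was not tested. At a summit p of at most 1e-05, 21 of 34 genes without a WT peak were gained in either list (61.8%, against 17.04% of all), and at an area of at least 1000, 24 of 36 (66.7%, against 18.5%). Each cut was the same for all lists, although areas are not scaled between them. More genes than the 28 reported then lacked a WT peak, and some gains arose where the cut removed a WT peak, as at Dlx6 and Lhx1. Depth per library is not in the lists, so a missing peak may be enrichment under the threshold of the peak caller.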
